A study of Mus musculus with 12 samples.

Results

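The genes described here encode the tight, adherens and gap junctions of the endothelium. They were chosen by symbol, as a list of 37 genes out of 32419 with a row in either deposited table, and claudins typical of epithelia were left out of the list. Of the 37, 36 had a row in both tables, and *Cldn11* was analysed under OGD-R only. By role they were 9 tight junction membrane proteins, 5 adhesion molecules of the immunoglobulin family, 9 tight junction and polarity scaffolds, 10 adherens junction proteins and 4 connexins.

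The cells were primary brain endothelial cells (BECs) cultured from mice aged 8 weeks, of the strain C57BL/6 by the labels and of a C57BL/6J background by the methods, either wild-type (*Cort*+/+) or lacking cortistatin (*Cort*-/-), a neuropeptide related to somatostatin. Each replicate pooled 3 mice, and the cultures had been enriched for endothelium with puromycin. They were kept for 24 h in normoxia and normoglycemia (NX/NG, 21% O2 and 5.5 mM glucose) or exposed for 4 h to 1% O2 without glucose and then reoxygenated for 20 h (OGD-R), a culture model of ischemia and reperfusion. GEO's labels also tag every sample with a stroke model made by arterial occlusion, NX/NG cultures included, whereas the methods of the study describe OGD-R in culture. Expression was measured by RNA-seq in 3 *Cort*+/+ and 2 *Cort*-/- libraries in each environment, so that 10 of the 12 samples listed were analysed. Of the *Cort*-/- samples, replicate 3 under NX/NG and replicate 2 under OGD-R were not analysed here. The libraries held between 12386048 and 12390428 reads on genes, as recovered from the deposited values. These totals were nearly equal in all libraries and below the average number of sequenced reads in the paper. They may therefore not be the depth as sequenced, and the reason was not tested.

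Endothelial cells seal the vessel wall through belts of junctions. Claudins, occludin and adhesion molecules of the immunoglobulin family close the space between neighbours at tight junctions, VE-cadherin and the catenins anchor the cells to each other and to actin at adherens junctions, and connexins form channels that couple their cytoplasms. In brain vessels these belts are unusually tight and form the physical part of the blood-brain barrier.

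Several facts about the libraries touch the values below. *Cort* had at most 2 reads in any library and was at 0 in every *Cort*-/- library, so at this depth it does not check the genotype labels. Reads on *Rn18s-rs5*, a ribosomal RNA gene, made up between 7.64% and 15.8% of 8 libraries but 0.0775% of *Cort*+/+ OGD-R replicate 1 and 0.0951% of *Cort*-/- OGD-R replicate 3. Of 12 endothelial markers outside the list, the transcription factor gene *Erg* lay between 64.5 and 109 RPKM and the receptor gene *Tie1* between 77.0 and 105 RPKM. Among the brain-barrier transporters of that list, *Slc2a1* lay between 30.5 and 48.5 RPKM, whereas *Slco1a4* and *Mfsd2a* stayed under 1 RPKM in every library. *Acta2*, a smooth muscle actin, lay between 630 and 1080 RPKM in all cultures, while the pericyte channel genes *Kcnj8* and *Abcc9* were at or near 0. The summed level of 14 epithelial and choroid plexus markers was 80.1 RPKM in *Cort*+/+ NX/NG replicate 2 and 65.5 in *Cort*-/- OGD-R replicate 1, against 19.4 to 35.1 in the other 8 libraries.

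Promoters are shown for the claudin that dominated these cells (*Cldn5*) and for members that stood apart between the genotypes (*Cldn1*, *F11r* and *Gja1*), since they differ in the short motifs they carry. The windows run from 250 bases before to 50 bases after the gene's start in RefSeq on build GRCm38.p6, where 27 of the 37 members had at least 1. These members had 38 windows in all, and the first listed window of each gene is printed. The motifs searched on both strands, with matches in capitals, were the AP-1 site (TGANTCA), the CCAAT box (CCAAT) and the GC box (GGGCGG), which did not overlap in these windows. *Cldn5* lies on the plus strand at chr16:18776597-18776896, *Cldn1* on the minus strand at chr16:26371790-26372089, *F11r* on the plus strand at chr1:171437311-171437610 and *Gja1* on the plus strand at chr10:56377050-56377349.
Cldn5: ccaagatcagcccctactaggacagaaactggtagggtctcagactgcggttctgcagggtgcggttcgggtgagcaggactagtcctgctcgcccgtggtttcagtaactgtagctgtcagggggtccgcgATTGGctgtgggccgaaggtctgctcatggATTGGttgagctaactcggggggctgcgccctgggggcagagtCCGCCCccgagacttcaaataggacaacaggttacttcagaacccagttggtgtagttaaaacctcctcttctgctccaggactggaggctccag
Cldn1: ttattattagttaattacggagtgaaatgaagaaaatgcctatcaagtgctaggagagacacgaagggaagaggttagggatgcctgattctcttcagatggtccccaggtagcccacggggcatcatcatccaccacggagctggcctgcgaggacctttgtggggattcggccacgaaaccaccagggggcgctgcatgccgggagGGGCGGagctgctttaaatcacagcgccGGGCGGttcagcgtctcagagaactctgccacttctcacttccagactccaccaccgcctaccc
F11r: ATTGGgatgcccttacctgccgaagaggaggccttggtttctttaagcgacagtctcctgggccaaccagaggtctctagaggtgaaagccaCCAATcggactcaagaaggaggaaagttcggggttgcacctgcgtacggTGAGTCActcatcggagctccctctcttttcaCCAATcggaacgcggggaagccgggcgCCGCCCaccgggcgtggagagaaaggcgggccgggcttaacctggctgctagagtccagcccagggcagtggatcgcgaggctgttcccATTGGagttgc
Gja1: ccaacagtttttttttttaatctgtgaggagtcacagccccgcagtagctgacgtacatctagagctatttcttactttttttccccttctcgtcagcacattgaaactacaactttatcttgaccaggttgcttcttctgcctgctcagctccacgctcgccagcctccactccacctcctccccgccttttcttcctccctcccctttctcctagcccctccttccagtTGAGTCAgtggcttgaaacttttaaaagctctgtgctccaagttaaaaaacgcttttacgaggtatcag
*Cldn5* held 2 CCAAT boxes and 1 GC box, *Cldn1* held 2 GC boxes, *F11r* held 1 AP-1 site, 4 CCAAT boxes and 1 GC box, and *Gja1* held 1 AP-1 site, whose first base lay 19 bases before the start. Over the 32851 windows of the table, 7.81% held an AP-1 site, 37.4% a CCAAT box and 35.7% a GC box. Counted by gene, with a match in any of its windows, a GC box was present for 25 of the 27 members with a window. This stands beside 69.5% of the 9594 genes with a window that reached 1 RPKM in at least 2 libraries. An AP-1 site was present for 5 of the 27 members, beside 6.23% of those genes, and a CCAAT box for 12, beside 43.0%. These matches are descriptions of the letters and not of factor binding.

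Levels are given in RPKM (reads corrected for library size and gene length, which allows genes to be compared) as deposited, with each environment normalized on its own. Scaling all libraries together multiplied the values by 0.973 to 1.032. Of the members, 6 stayed at 100 RPKM or above in every library, 9 more at 10 or above, 15 more at 1 or above, and 7 fell under 1 RPKM in at least 1 library. The leading member was *Cdh5*, which encodes VE-cadherin and ranged from 443 to 740 RPKM. It was followed by *Ctnnb1* (beta-catenin) at 218 to 254, *Pecam1* at 152 to 255, *Esam* at 102 to 136, *Cldn5* at 105 to 136 and *Ctnna1* (alpha-catenin) at 104 to 132, and the ranges of *Esam*, *Cldn5* and *Ctnna1* overlapped, below that of *Pecam1*, which overlapped with *Ctnnb1*.

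**Figure D1:**
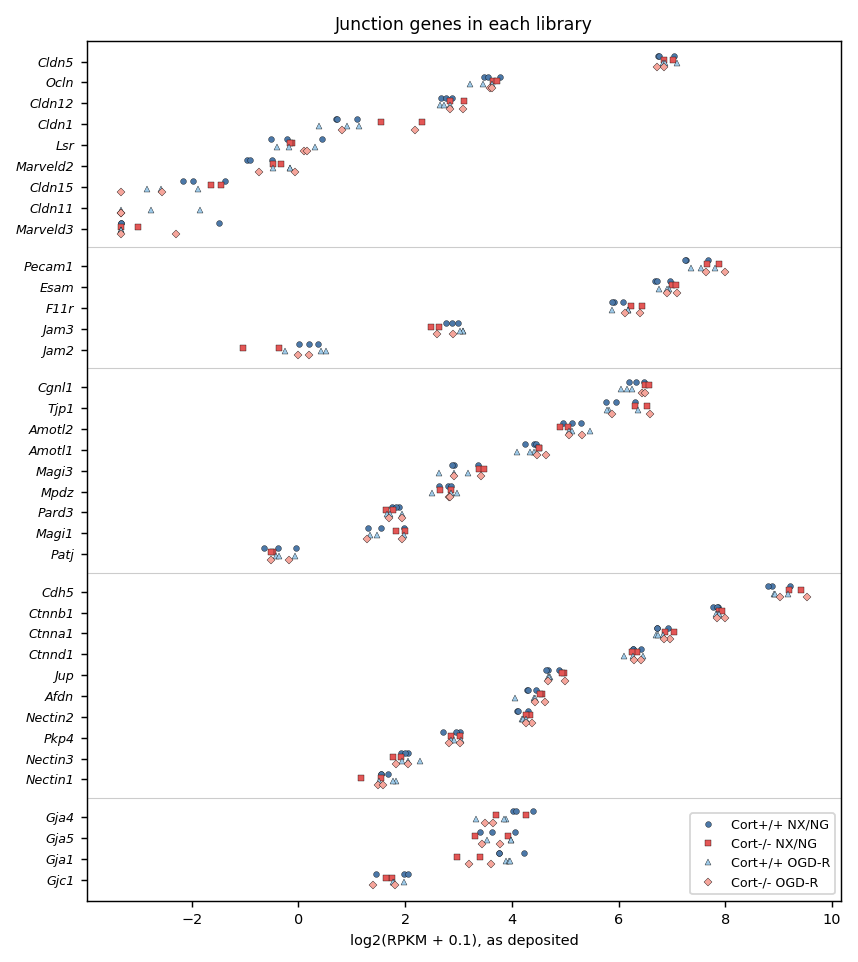
Level of each junction gene in each library, as log2(RPKM + 0.1) on the horizontal axis, with genes grouped by role from top (tight junction membrane proteins) to bottom (connexins) and colours and shapes for the 4 groups. *Cdh5* lies farthest right at 443 to 740 RPKM, and *Cldn11*, *Cldn15* and *Marveld3* lie at the left edge.

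Among the tight junction membrane proteins, *Cldn5*, the main claudin of brain vessels, was at 106, 108 and 132 RPKM in the 3 *Cort*+/+ and 130 and 116 RPKM in the 2 *Cort*-/- NX/NG libraries. After OGD-R it was at 113, 136 and 117 RPKM in *Cort*+/+ and 116 and 105 RPKM in *Cort*-/- BECs. *Cldn5* thus held between 89.5% and 94.2% of the summed RPKM of the 4 member claudins measured in both tables, with *Cldn12* at 4.49% to 6.58%. Claudins typical of epithelia are not in this sum. Among them, *Cldn4* reached 7.29 RPKM and *Cldn6* 5.39 RPKM, both in *Cort*+/+ NX/NG replicate 2. *Ocln*, which encodes occludin, was at 10.99, 11.7 and 13.6 RPKM in *Cort*+/+ and 12.5 and 13.0 RPKM in *Cort*-/- NX/NG libraries, and at 9.18, 10.9 and 12.3 RPKM against 11.9 and 12.2 RPKM after OGD-R. The groups of both genes overlapped in each environment.

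*Cldn11*, *Cldn15* and *Marveld3* were close to the detection floor, set at 3 reads in every library of a group. *Cldn15* had 4, 8 and 3 reads in *Cort*+/+ and 7 and 6 in *Cort*-/- NX/NG libraries, and 2, 4 and 1 reads against 0 and 2 after OGD-R. *Marveld3* had 11 reads in *Cort*+/+ NX/NG replicate 2, 4 in *Cort*-/- OGD-R replicate 1, 1 in *Cort*-/- NX/NG replicate 2 and 0 elsewhere, and the first 2 of these are the libraries with the most epithelial marker RNA. *Cldn11* had 4 and 1 reads in *Cort*+/+ OGD-R replicates 3 and 2 and none in the other 3 OGD-R libraries. The angulin gene *Lsr* and the tricellulin gene *Marveld2*, whose proteins sit where 3 cells meet, stayed between 0.60 and 1.26 RPKM and between 0.41 and 0.857 RPKM.

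Among the scaffolds, *Cgnl1* (paracingulin) ranged from 66.2 to 95.0 RPKM and *Tjp1*, which encodes ZO-1, from 54.4 to 96.3 RPKM, ranges that overlap almost fully. *Tjp1* was at 61.5, 54.4 and 79.1 RPKM in *Cort*+/+ and 79.0 and 92.8 RPKM in *Cort*-/- NX/NG libraries, and at 56.4, 55.3 and 82.8 RPKM against 96.3 and 58.7 RPKM after OGD-R. The 2 genotypes therefore overlapped in both environments. The 4 connexins were lower, with *Gja4* (connexin 37) at 9.88 to 20.8 RPKM, *Gja5* (connexin 40) at 9.86 to 16.6, *Gja1* (connexin 43) at 7.77 to 18.6 and *Gjc1* (connexin 45) at 2.52 to 4.03, and only *Gjc1* lay apart from the other 3.

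Replicates of one group differed from each other in a way that some members shared. *Cdh5* was at 471, 443 and 592 RPKM in *Cort*+/+ and 582 and 681 RPKM in *Cort*-/- NX/NG libraries, and at 484, 486 and 582 RPKM against 740 and 519 RPKM after OGD-R. *Pecam1*, which encodes the adhesion molecule CD31, was at 153, 152 and 205 RPKM against 201 and 236 RPKM under NX/NG, and at 163, 188 and 224 RPKM against 255 and 198 RPKM after OGD-R. Replicate 3 was the highest *Cort*+/+ NX/NG library for 16 of the 32 members that reached 1 RPKM in at least 2 libraries, replicate 2 for 11 and replicate 1 for 5. On the joint scale, 7 of these 32 members (*Cdh5*, *Cldn1*, *Tjp1*, *Pecam1*, *Afdn*, *Magi1* and *Magi3*) were highest in the same 5 libraries, which were both *Cort*-/- NX/NG libraries, replicate 3 of *Cort*+/+ in each environment and *Cort*-/- OGD-R replicate 1. Among all 14850 genes at this level, 682 (4.59%) had those 5 libraries highest. The 5 libraries were taken from *Cdh5*, so its own match was fixed in advance. Most *Cort*-/- libraries are among them, so the pattern does not separate genotype from differences between replicates. The pattern is a description of the libraries chosen after the values were seen. Of 12 endothelial markers, *Erg* was high in the same 5 libraries, at 87.3 to 109 RPKM, against 64.5 to 83.8 RPKM in the others. Not all of these markers did so, with *Eng* highest in *Cort*-/- OGD-R replicate 3 (221 RPKM) and *Vwf* in *Cort*+/+ OGD-R replicate 1 (21.6 RPKM).

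**Figure D2:**
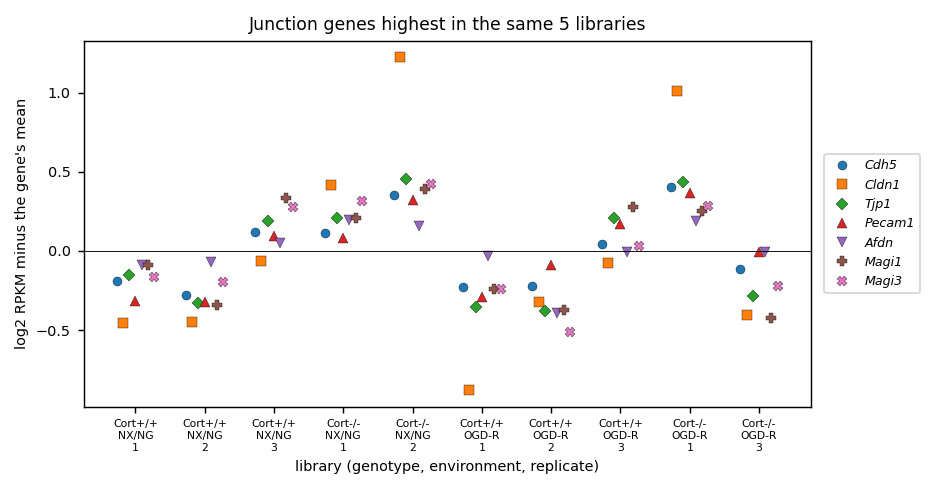
Level of 7 junction genes in each of the 10 libraries, as log2 RPKM on the joint scale minus the gene's own mean over the libraries (vertical axis), with a colour and a shape for each gene. The genes were selected for being highest in the same 5 libraries, and *Cldn1* spans the widest range.

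The first comparison asks how the loss of cortistatin bears on junction transcripts in resting BECs. Under NX/NG, *Cldn1*, *F11r*, *Jup* and *Afdn* were higher and *Gja1*, *Jam2* and *Jam3* lower in *Cort*-/- than in *Cort*+/+ BECs at an unadjusted p under 0.05. None of the 36 members tested passed a false discovery rate (FDR) of 0.05 in limma, nor did any of the 29965 genes (0.0%), of which 2513 had an unadjusted p under 0.05. The 4 higher and 3 lower members compare with 3.56% and 4.82% of all genes at that unadjusted p. These shares include genes under 1 RPKM, whereas 31 of the members reached 1 RPKM in at least 2 libraries. When the 14220 genes at that level were fitted alone, 771 were higher and 1102 lower at an unadjusted p under 0.05. The median log2 fold change was 0.09 over the members, of which 21 were positive and 15 negative, and -0.01 over all genes tested.

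*Cldn1*, a minor claudin in these cells, had the largest difference of the members. It was at 1.53, 1.54 and 2.04 RPKM in *Cort*+/+ and 2.81 and 4.88 RPKM in *Cort*-/- NX/NG libraries, so the groups did not overlap. Its log2 fold change was 1.09 ± 0.28 (SE), with an unadjusted p of 0.0107 and an FDR of 0.407. Without *Cort*-/- NX/NG replicate 2, the higher of the pair, it was 0.70, with an unadjusted p of 0.0595. The share of *Cldn1* in the summed RPKM of the member claudins in both tables was 1.37% ± 0.0709 (SD, n = 3) in *Cort*+/+ and 2.89% ± 1.25 (SD, n = 2) in *Cort*-/- NX/NG libraries. The epithelial keratin gene *Krt8* was at 2.57 RPKM in *Cort*-/- NX/NG replicate 2 and 0.0827 in replicate 1, and at 18.7 RPKM in *Cort*+/+ NX/NG replicate 2, where *Cldn1* was at 1.54 RPKM; the part of such RNA in the *Cldn1* difference was not tested.

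*F11r*, which encodes junctional adhesion molecule A, was at 60.1, 58.6 and 67.7 RPKM in *Cort*+/+ and 75.3 and 86.8 RPKM in *Cort*-/- NX/NG libraries. The 2 groups did not overlap, and the log2 fold change was 0.38 ± 0.10 (SE), with an unadjusted p of 0.0107 and an FDR of 0.407. Its relatives went the other way. *Jam3* was at 7.88, 6.66 and 7.23 RPKM against 5.52 and 6.12 RPKM, a log2 fold change of -0.31 ± 0.10 (SE) with an FDR of 0.505. *Jam2*, scarce in these cells, was at 1.19, 1.04 and 0.904 RPKM against 0.388 and 0.677 RPKM, a log2 fold change of -0.89 ± 0.29 (SE) with an FDR of 0.526. Without *Cort*-/- NX/NG replicate 1 the *Jam2* value was -0.55, and without replicate 2 it was -1.22. *Esam*, an endothelial member of the family, had a log2 fold change of 0.25 ± 0.11 (SE) with non-overlapping groups and an unadjusted p of 0.0667, and that of *Pecam1* was 0.37 ± 0.17 (SE) with groups that overlapped.

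At the adherens junction, *Jup*, which encodes plakoglobin, was at 25.6, 24.8 and 29.3 RPKM in *Cort*+/+ and 31.3 and 30.6 RPKM in *Cort*-/- NX/NG libraries, a log2 fold change of 0.22 ± 0.08 (SE) with an FDR of 0.575. *Afdn*, whose product afadin ties nectins to actin, was at 19.5, 19.7 and 21.7 RPKM against 23.7 and 23.0 RPKM, a log2 fold change of 0.20 ± 0.07 (SE) with an FDR of 0.518. Both genes had groups that did not overlap, with small differences. After OGD-R both overlapped, with *Jup* at 26.2, 25.4 and 25.7 RPKM against 31.7 and 25.6 RPKM and *Afdn* at 21.3, 16.6 and 21.6 RPKM against 24.6 and 21.5 RPKM. *Cdh5* had a log2 fold change of 0.34 ± 0.17 (SE) and an unadjusted p of 0.0999, and *Ctnnb1* one of 0.08 ± 0.07 (SE). The scaffolds *Tjp1* and *Magi3* had log2 fold changes of 0.42 ± 0.18 and 0.38 ± 0.17 (SE), and no scaffold reached an unadjusted p under 0.05.

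*Gja1*, the connexin found in many cell types, was at 18.6, 13.5 and 13.5 RPKM in *Cort*+/+ and 10.4 and 7.77 RPKM in *Cort*-/- NX/NG libraries. The *Cort*-/- libraries were both below all *Cort*+/+ libraries, with a log2 fold change of -0.73 ± 0.20 (SE), an unadjusted p of 0.0143 and an FDR of 0.438. The other 3 connexins had log2 fold changes of -0.18 ± 0.20 (*Gja4*), -0.08 ± 0.26 (*Gja5*) and -0.13 ± 0.20 (SE, *Gjc1*), with overlapping groups. *Gja1* made up 36.6%, 24.6% and 31.0% of the summed connexin RPKM in *Cort*+/+ and 28.6% and 17.3% in *Cort*-/- NX/NG libraries, so this share overlapped between the genotypes.

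**Figure D3:**
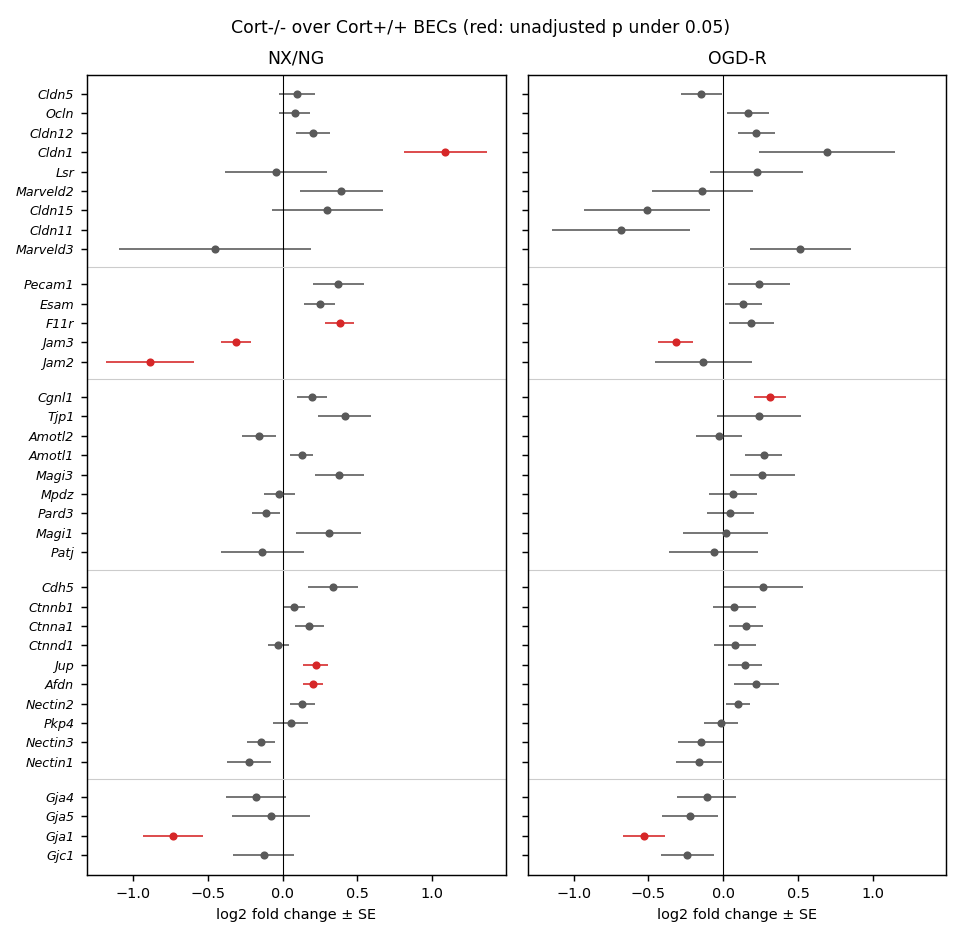
Log2 fold change of *Cort*-/- over *Cort*+/+ BECs for each junction gene under NX/NG (left) and OGD-R (right), with bars for the SE and red for an unadjusted p under 0.05. The 7 red genes on the left and the 3 on the right did not pass the FDR, and *Gja1* and *Jam3* lie left of 0 in both panels.

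Counted over samples rather than by the model, the 2 genotypes did not overlap under NX/NG for 13 of the 31 members that reached 1 RPKM in at least 2 libraries of the comparison. *Afdn*, *Amotl1*, *Cgnl1*, *Cldn1*, *Ctnnb1*, *Esam*, *F11r*, *Jup* and *Magi3* were higher in both *Cort*-/- libraries, 9 members, beside 16.2% of all 14220 genes. *Gja1*, *Jam2*, *Jam3* and *Nectin3* were lower, 4 members, beside 16.5% of all genes, and *Jam2* reached 1 RPKM in *Cort*+/+ libraries alone. These counts describe the libraries and are not independent of the model's values.

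Markers of other cell types moved with these differences. Not all members of a marker list went one way. Of 7 fibroblast and leptomeningeal markers in both tables, *Col1a1*, *Col1a2* and *Col3a1* were lower in *Cort*-/- BECs under NX/NG at an unadjusted p under 0.05, *Pdgfra* had a log2 fold change of 0.66 with an unadjusted p of 0.0722, and the summed level of the 7 was 193 to 279 RPKM in *Cort*+/+ and 83.6 to 121 RPKM in *Cort*-/- libraries, although *Lum* and *Slc6a13* were at or near 0 in all. Of 9 mural markers 3 were lower, among them *Pdgfrb* at 12.1, 13.5 and 12.6 RPKM against 5.17 and 7.66 RPKM, while *Myh11* had a log2 fold change of 0.29, with summed levels of 864 to 1103 and 809 to 917 RPKM. Of 12 endothelial markers *Cd34*, *Emcn* and *Erg* were higher and *Slco1a4*, *Vwf* and *Flt1* had log2 fold changes of -0.31, -0.19 and -0.03, with summed levels of 524 to 656 and 718 to 748 RPKM. In bulk RNA, fewer cells of a type and less RNA per cell cannot be told apart, and the part of such cells in the values of *Gja1*, *Jam2*, *Jam3*, *F11r* and *Cldn1* was not tested.

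**Figure D4:**
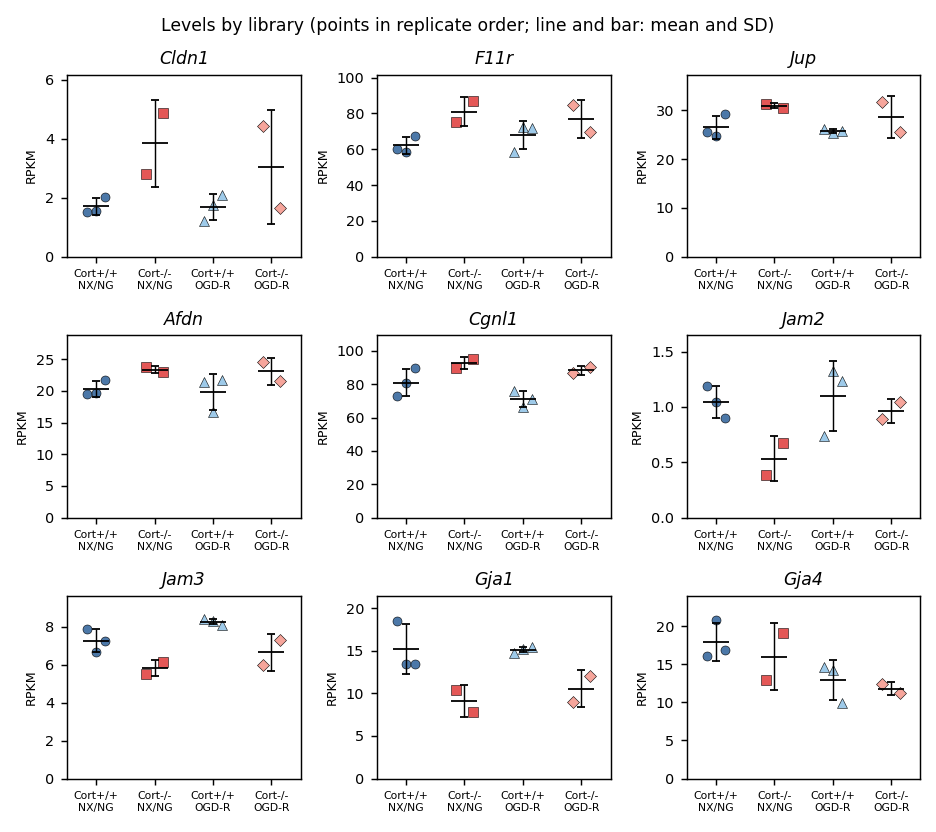
RPKM of the junction genes other than *Cldn15* that had an unadjusted p under 0.05 in a comparison, 9 in all, by library (points), with the mean and SD of each group (line and bar). *Gja1* and *Jam3* were lower in both *Cort*-/- libraries than in all *Cort*+/+ libraries of the same environment, and *Cldn1* reached 4.88 and 4.42 RPKM in a single *Cort*-/- library of each environment.

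The same contrast after OGD-R asks whether the genotypes differed once BECs had been deprived and reoxygenated. Of the 37 members tested, *Cgnl1* was higher and *Gja1* and *Jam3* lower in *Cort*-/- BECs at an unadjusted p under 0.05, and none passed the FDR of 0.05, nor did any of the 29775 genes (0.0%), of which 1019 had an unadjusted p under 0.05. That 1 higher and 2 lower members compare with 1.72% and 1.71% of all genes. When the 14325 genes at 1 RPKM in at least 2 libraries were fitted alone, 212 were higher and 321 lower at that unadjusted p. The median log2 fold change was 0.07 over the members and -0.01 over all genes tested.

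*Gja1* was at 14.8, 15.2 and 15.4 RPKM in *Cort*+/+ and 9.04 and 12.1 RPKM in *Cort*-/- OGD-R libraries. The groups did not overlap, and the log2 fold change was -0.53 ± 0.14 (SE), with an unadjusted p of 0.0104 and an FDR of 0.907. Without *Cort*-/- OGD-R replicate 1 the *Gja1* value was -0.32, and without replicate 3, which is low in ribosomal RNA, it was -0.74. Each of these fits left a single *Cort*-/- library. Without *Cort*+/+ OGD-R replicate 1, the other library low in ribosomal RNA, the *Gja1* value was -0.55. *Jam3* was at 8.40, 8.33 and 8.11 RPKM against 5.97 and 7.33 RPKM, a log2 fold change of -0.32 ± 0.12 (SE) with an FDR of 0.978. Its value was -0.17 without *Cort*-/- OGD-R replicate 1 and -0.47 without replicate 3. Under OGD-R, *Col3a1* and *Lum* were lower in *Cort*-/- BECs at an unadjusted p under 0.05, with *Lum* at no more than 0.149 RPKM. The summed level of the 7 fibroblast and leptomeningeal markers was 231 to 342 RPKM in *Cort*+/+ and 200 to 252 RPKM in *Cort*-/- libraries, which overlap. At that p the mural marker *Vtn*, under 1 RPKM in every library, was also lower. The endothelial marker *Cd34* was higher, while *Slco1a4*, *Vwf* and *Flt1* had log2 fold changes of -0.81, -0.39 and -0.21.

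*Cgnl1* was at 76.0, 66.2 and 71.3 RPKM in *Cort*+/+ and 86.4 and 90.3 RPKM in *Cort*-/- OGD-R libraries. Its groups did not overlap, with a log2 fold change of 0.31 ± 0.11 (SE) and an FDR of 0.978. *Cldn1*, at 1.20, 1.77 and 2.09 RPKM against 4.42 and 1.67 RPKM, overlapped between the genotypes, with a log2 fold change of 0.69 ± 0.46 (SE). Its high library was *Cort*-/- OGD-R replicate 1, where *Krt8* was at 11.9 RPKM, against at most 0.260 RPKM in the other 4 OGD-R libraries. Among the epithelial and choroid plexus markers, *Krt18*, *Cldn6* and *Cldn3* were higher in *Cort*-/- BECs at an unadjusted p under 0.05, while *Ttr*, *Folr1* and *Clic6* had negative log2 fold changes. *Krt18* was at 7.04, 3.13 and 1.28 RPKM in *Cort*+/+ and 20.9 and 8.67 RPKM in *Cort*-/- libraries. The part of such RNA in the *Cldn1* values was not tested. *F11r* was at 58.7, 72.5 and 72.0 RPKM against 84.5 and 69.6 RPKM and *Jam2* at 0.735, 1.33 and 1.23 RPKM against 0.888 and 1.04 RPKM, so that both overlapped. The log2 fold changes of *Cdh5*, *Cldn5*, *Ocln* and *Tjp1* were 0.27 ± 0.27, -0.15 ± 0.13, 0.17 ± 0.14 and 0.24 ± 0.28 (SE).

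Over samples, 6 of the 32 members at 1 RPKM or more had genotypes that did not overlap under OGD-R. *Amotl1*, *Cgnl1*, *Ctnna1* and *Nectin2* were higher in *Cort*-/- BECs, 4 members beside 7.94% of all 14325 genes, and *Gja1* and *Jam3* were lower, 2 members beside 8.22%. *Gja1* and *Jam3* were therefore the members whose *Cort*-/- libraries lay below all *Cort*+/+ libraries in both environments, and *Cgnl1* and *Amotl1* the members whose *Cort*-/- libraries lay above them in both. The share of all genes apart in the same direction in both environments was not counted, so how unusual these members are is not known. No library is shared between these 2 contrasts, and whether the same pools of mice gave both environments is not stated.

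The response to OGD-R itself was compared within each genotype on the joint scale. In *Cort*+/+ BECs *Gja4* and *Cgnl1* were lower after OGD-R at an unadjusted p under 0.05 and no member was higher, out of 36 tested, beside 2.37% and 3.22% of the 27075 genes. No member passed the FDR of 0.05, which 9 genes (0.0332%) did. On the deposited scale *Gja4*, a connexin of arterial endothelium, was at 16.1, 20.8 and 16.8 RPKM under NX/NG and 14.7, 14.3 and 9.88 RPKM after OGD-R. Values of the 2 environments were apart, with a log2 fold change of -0.54 ± 0.18 (SE), an unadjusted p of 0.0199 and an FDR of 0.872. The value was -0.43, with an unadjusted p of 0.067, without *Cort*+/+ NX/NG replicate 2, and -0.36 without *Cort*+/+ OGD-R replicate 3. *Cgnl1* was at 72.8, 80.6 and 89.4 RPKM under NX/NG and at the OGD-R levels given above, which overlap as deposited, and the joint scale set its lowest NX/NG value at 74.5 and its highest OGD-R value at 74.0. It had a log2 fold change of -0.25 ± 0.09 (SE) with an FDR of 0.872. In the *Cort*-/- NX/NG libraries *Cgnl1* was at 89.9 and 95.0 RPKM.

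**Figure D5:**
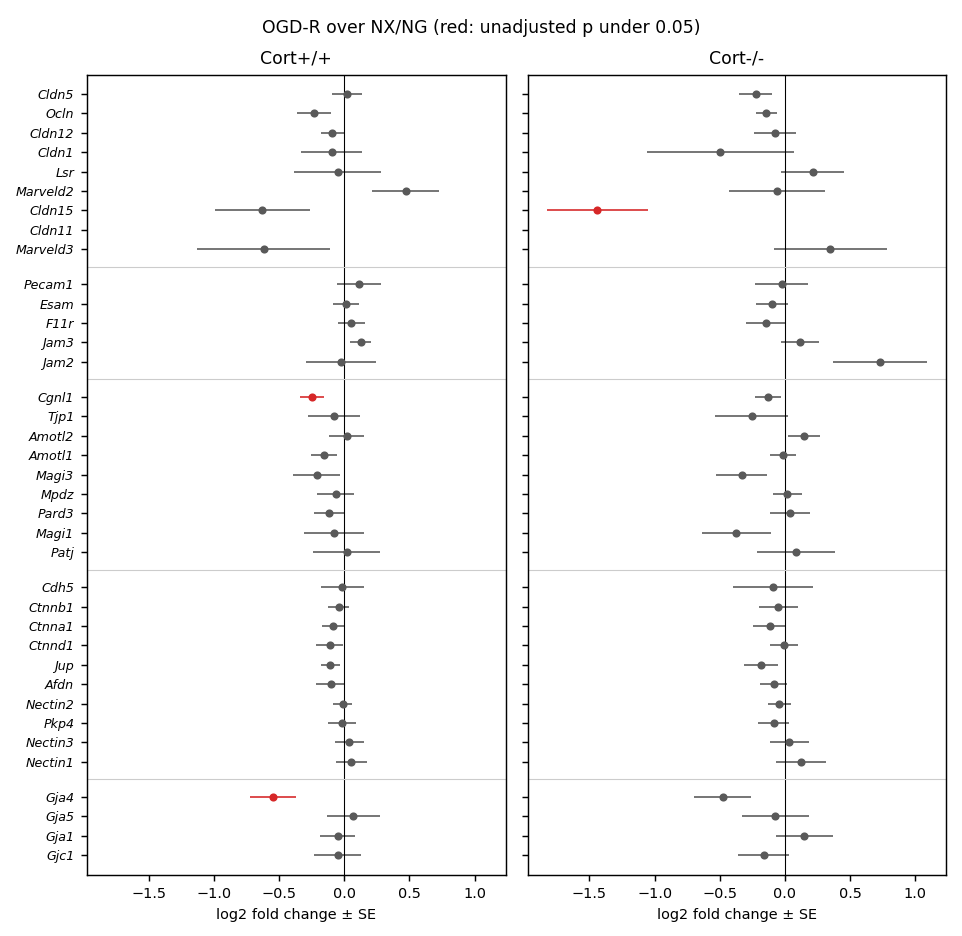
Log2 fold change of OGD-R over NX/NG for each junction gene in *Cort*+/+ (left) and *Cort*-/- (right) BECs on the joint scale, with bars for the SE and red for an unadjusted p under 0.05. Most points lie near 0, *Gja4* and *Cgnl1* are red on the left and *Cldn15*, which had few reads, is red on the right.

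In *Cort*-/- BECs the member at an unadjusted p under 0.05 was *Cldn15*, with 7 and 6 reads under NX/NG and 0 and 2 reads after OGD-R, at the detection floor. This 1 lower member and 0 higher members, out of 36, compare with 1.77% and 2.32% of 26523 genes, and no gene passed the FDR of 0.05 (0.0%), with 1084 at an unadjusted p under 0.05. *Gja4* was at 12.9 and 19.1 RPKM under NX/NG and 12.4 and 11.2 RPKM after OGD-R in *Cort*-/- BECs, a log2 fold change of -0.48 ± 0.22 (SE) with an unadjusted p of 0.0944. *Cldn5* had a log2 fold change of -0.22 ± 0.13 (SE) in *Cort*-/- and 0.02 ± 0.11 (SE) in *Cort*+/+ BECs. That of *Cdh5* was -0.09 ± 0.31 in *Cort*-/- and -0.02 ± 0.16 (SE) in *Cort*+/+ BECs.

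Over samples and on the joint scale, OGD-R and NX/NG libraries did not overlap for 2 of 32 members in *Cort*+/+ BECs, *Cgnl1* and *Gja4*, both lower after OGD-R, beside 4.72% of all genes, and no member was higher, beside 8.16%. On the deposited scale *Gja4* was lower and *Jam3* higher. In *Cort*-/- BECs, 6 of 30 members were lower in both OGD-R libraries on the joint scale (*Cgnl1*, *Cldn5*, *Gja4*, *Jup*, *Magi3* and *Ocln*), beside 16.0% of all genes, and none was higher, beside 17.8%. On the deposited scale *Gja4* and *Ocln* were lower, *Amotl2* was higher and the other 4 overlapped, so most of these counts rest on the rescaling, and *Gja4* was lower in both genotypes on either scale. On the joint scale 25 of 36 members in each genotype had a negative log2 fold change, with a median of -0.05 in *Cort*+/+ and -0.07 in *Cort*-/- BECs, and medians over all genes of -0.01 and 0.00. In *Cort*-/- BECs *Col1a1*, *Col1a2*, *Col3a1*, *Cspg4*, *Pdgfrb* and *Vwf* were higher and *Cd34* and *Myh11* lower after OGD-R at an unadjusted p under 0.05. *Vwf*, *Cd34* and *Myh11* went the same way at that p in *Cort*+/+ BECs, where *Lum* and *Slco1a4*, both under 1 RPKM, were also higher. The summed fibroblast and leptomeningeal markers were at 83.6 to 121 RPKM under NX/NG and 200 to 252 RPKM after OGD-R in *Cort*-/- BECs. In *Cort*+/+ BECs they were at 193 to 279 and 231 to 342 RPKM, and the part of such RNA in the junction values was not tested. These contrasts share the replicate libraries of the genotype contrasts above.

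Whether the response differed between genotypes was tested as an interaction. No member reached an unadjusted p under 0.05, 0 of 36, beside 1.72% of the 27321 genes with a positive and 1.15% with a negative interaction, and 3 genes (0.011%) passed the FDR of 0.05. The lowest p among the members was that of *Jam2*, with an interaction of 0.76 ± 0.44 (SE) on the log2 scale and an unadjusted p of 0.124. For *Gja1* and *Jam3* the interactions were 0.20 ± 0.26 and -0.01 ± 0.15 (SE), and for *Cldn5* it was -0.24 ± 0.18 (SE). These errors leave room for differences in either direction.

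A second list held 43 genes that work with the members, grouped as scaffolds and polarity proteins, actin linkers, Rap1 and cerebral cavernous malformation regulators, VE-cadherin partners and other channels. None passed the FDR of 0.05 in any of the 5 comparisons. Under NX/NG, 2 were higher and 1 lower in *Cort*-/- BECs at an unadjusted p under 0.05, beside 3.56% and 4.82% of all genes. Under OGD-R 1 was higher and 1 lower, beside 1.72% and 1.71% of all genes. *Mylk*, the kinase of myosin light chains that drives contraction, was at 3.59, 4.10 and 3.995 RPKM in *Cort*+/+ and 4.77 and 5.28 RPKM in *Cort*-/- NX/NG libraries, and at 3.65, 3.43 and 3.23 RPKM against 4.44 and 4.73 RPKM after OGD-R. It was higher in both *Cort*-/- libraries than in all *Cort*+/+ libraries of each environment, with log2 fold changes of 0.36 ± 0.10 and 0.41 ± 0.12 (SE). *Rasip1*, a Rap1 effector of endothelial cells, was at 24.6, 26.3 and 31.7 RPKM against 34.8 and 33.8 RPKM under NX/NG, a log2 fold change of 0.32 ± 0.12 (SE), and overlapped between the genotypes after OGD-R.

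*Pard6g*, a polarity gene, was the partner that was lower under NX/NG, with a log2 fold change of -0.44 ± 0.17 (SE), and *Limch1*, an activator of nonmuscle myosin, the one that was lower under OGD-R, with -0.55 ± 0.21 (SE). Within *Cort*+/+ BECs no partner was higher and 2 of 42 were lower after OGD-R at that unadjusted p, beside 3.22% and 2.37% of all genes. The 2 were *Rapgef1* and *Mylk*, with log2 fold changes of -0.25 ± 0.08 and -0.24 ± 0.10 (SE). In *Cort*-/- BECs 0 of 43 reached an unadjusted p under 0.05 in either direction, beside 2.32% of all genes higher and 1.77% lower.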

How the data were processed

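RNA-seq of BEC cultures was analysed from the values deposited by the authors. RPKM had been computed by the authors per gene length and library size, separately for the NX/NG and OGD-R tables (29965 and 29775 genes). The aligner and genome build are not given in the sources used here, edgeR is named in the submitters' processing notes, and the tables of the authors' own comparisons, with their fold changes and p-values, were not used. RPKM times length gave whole reads (tolerance 0.05) for at least 99.9958% of the values in each library. Groups follow GEO's labels. Per the labels, replicates were independent experiments.

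log2(RPKM + 0.1) was fitted with limma 3.58.1 in R 4.3.3 (trended empirical Bayes) over genes above 0, with Benjamini-Hochberg adjustment over all genes and an FDR threshold of 0.05. A fold change on this scale understates that of low genes. For OGD-R against NX/NG and the interaction, the reads of the 27321 shared genes were scaled jointly by the trimmed mean of M values. The fit was tested on simulated data. The SE of a fold change and the SD reflect the spread between replicate libraries, whereas the detection floor concerns counting error only. All mapped libraries were kept, among them *Cort*+/+ OGD-R replicate 1, which the study's heatmaps leave out.

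The members, roles, partner genes and marker lists were chosen with earlier results of these data known. 1 gene of the partner list is not reported here. Every member could be named. Values were given in every library for *Cdh5*, *Cldn1*, *Cldn5*, *Ocln*, *Tjp1*, *Pecam1*, *Gja1* and *F11r*, for the highest of each role and for members at an unadjusted p under 0.05, and partner genes were limited to the 2 with the lowest p under 0.05 per direction. The summed levels of the remaining marker lists were 0.272 to 0.631 RPKM (oligodendrocyte, 3 genes in both tables), 0.111 to 0.399 RPKM (astrocyte, 5 genes), 1.41 to 2.09 RPKM (macrophage and microglial, 5 genes) and 0.491 to 1.05 RPKM (neuronal, 4 genes). Alternatives were a replicate block, a pseudocount of 1, quantile normalization, a minimum of 1 RPKM in 2 libraries, limma-voom on the recovered reads, all groups in 1 fit, a term for low ribosomal RNA, the 2 libraries low in ribosomal RNA left out, and each library left out in turn. Figures were drawn with matplotlib 3.10.9.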

Additional observations from a re-analysis of the deposited data

How the results depend on the processing

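Of the 154 alternative values for the 13 log2 fold changes of members at an unadjusted p under 0.05, none changed sign and 153 stayed above the FDR threshold. The other was *Gja1* under OGD-R without *Cort*-/- replicate 3, a fit that left a single *Cort*-/- library. The number of members at an unadjusted p under 0.05 under NX/NG was 7, 14 with limma-voom on the recovered reads, and 1 to 16 when a library was left out, with 16 without *Cort*+/+ replicate 3 and 1 without *Cort*-/- replicate 2. Under OGD-R it was 3, 0 with the replicate block, 5 with a term for low ribosomal RNA, 5 without both libraries low in it, and 1 to 6 when a library was left out. Members called at an FDR of at most 0.05 were 0, except under OGD-R when a library was left out. *Gja1* and *Marveld3* were the members called without *Cort*-/- replicate 3, a fit that left a single *Cort*-/- library. For OGD-R against NX/NG, the 2 members in *Cort*+/+ became 0 to 2 when a library was left out, and the 1 member in *Cort*-/- became 0 with the minimum of 1 RPKM, 3 with limma-voom and 0 to 4 when a library was left out. On the deposited in place of the joint scale, the 6 members whose environments did not overlap in *Cort*-/- became 3, with other genes among them.

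Over all genes, 0 calls under NX/NG became 20 with a pseudocount of 1, 117 with limma-voom, 4 with all groups in 1 fit and 0 to 683 when a library was left out, and 0 under OGD-R became 5 with limma-voom, 7 with all groups in 1 fit and 0 to 710 when a library was left out; the largest counts leave 1 *Cort*-/- library, assumed to vary like the other group, and further causes were not tested. For OGD-R against NX/NG in *Cort*+/+, 9 became 5 with a pseudocount of 1, 1 with limma-voom and 0 with the minimum of 1 RPKM, the replicate block, all groups in 1 fit, the term for ribosomal RNA, both low libraries left out, or any library left out (0 to 0). For the interaction, 3 became 0 with a pseudocount of 1, the minimum of 1 RPKM, the replicate block, limma-voom, the ribosomal RNA term or both low libraries left out, and 0 to 8 when a library was left out.

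Same-numbered libraries had correlations of -0.437 to 0.131 after each group was centred on its mean. Centring a group of 2 forces its libraries to mirror each other. These correlations therefore cannot decide whether the numbers pair the samples. The replicate block left 0 members at an unadjusted p under 0.05 under OGD-R, and no paired analysis was possible in *Cort*-/- because the fit had 0 residual degrees of freedom. With 2 *Cort*-/- libraries per environment and about 12386048 recovered reads on genes per library, members under 1 RPKM rest on few reads.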
